A study of Mus musculus with 6 samples.

Results

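Cone phototransduction genes encode the proteins that turn light into an electrical signal in cone photoreceptors, and they were followed here in mouse retina at postnatal day 21. The members were every probe set (a group of short probes for 1 transcript) annotated with Opn1sw, Opn1mw, Arr3, Gnat2, Gnb3, Gngt2, Pde6c, Pde6h, Cnga3 or Cngb3. This gave 13 of 45037 probe sets, and 9 of the 10 genes out of 18193 genes named on the array. Cnga3 was not analysed here because its symbol and gene identifier were linked to no probe set in the annotation used. Opn1sw and Pde6h had 2 probe sets each, Arr3 had 3, and probe sets of 1 gene are not replicates of a condition.

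In cones, light activates an opsin, which activates the G protein transducin. Transducin releases a phosphodiesterase from its inhibitory subunit, cyclic GMP falls, and a channel held open by cyclic GMP closes. Cone arrestin then binds the activated opsin and ends its signal. Rods use the same steps with their own copies of most of these proteins. Cones are a small minority of mouse photoreceptors, and many mouse cones hold both opsins in amounts that vary from the dorsal to the ventral retina.

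The study compared 3 arrays labelled wildtype, of strain C57Bl/6, with 3 labelled knockout, of C57Bl/6 x Sv129 background and ERRβ -/-. ERRβ is an orphan nuclear receptor encoded by Esrrb, and the study asked what its loss does in a retina whose rods depend on it. All retinas were from day 21, of mixed sex, and each RNA came from 2 pooled retinas. Genotype and strain background differ together and cannot be told apart, and the labels do not describe the deleted part of the gene. In a whole retina, fewer cones and less RNA per cone cannot be told apart either.

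The values were array intensities on 2 scales. Replicates 1 and 2 of each group had a trimmed mean near 500 (the 500 set, 4 arrays), and replicate 3 of each group near 150 (the 150 set, 2 arrays), so the groups are compared only within a set. Esrrb did not check the labels: its brightest probe set read 2951, 2934 and 1771 in wildtype replicates 1, 2 and 3 against 3435, 4012 and 2397 in those labelled knockout (adjusted p = 0.0529 in limma). The arrays are therefore called labelled knockout. Lens fibre markers, another cell type's genes, moved with the groups. All 6 of 6 passed as higher, where 1.28% of all genes did. In wildtype Bfsp1 read 40.7, 28.6 and 6.00 and Mip 25.4, 20.3 and 182. These 2 met the filter on mean signal (54.5) only through their labelled knockout values. The summed signal of the 6 was 1125 to 1397 in wildtype against 30908 to 35308 in labelled knockout arrays of the 500 set. In the 150 set it was 2449 against 18030. Of 5 measured pigment epithelium markers 4 passed as higher, with sums of 10603 to 11814 against 17140 to 17501 and 408 against 838. No marker of either list was at 0. RNA quality, read as the Actb 3′ over 5′ signal, was 1.83 to 2.32 among wildtype arrays and 1.66 to 1.82 among labelled knockout arrays, while for Gapdh it was 0.712 to 0.779 and 0.719 to 0.731, which overlap. The part of these shifts in the cone values was not tested.

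Promoter sequence is shown for both opsin genes, whose probe sets went opposite ways in the 500 set, and for Arr3, the gene with the most homeodomain-type matches. Each is the 250 bases upstream of a RefSeq transcript start on GRCm38.p6, read in the gene's direction. Capitals mark AGGTCA, the hexamer to which many nuclear receptors bind, and TAATC, the core bound by photoreceptor homeodomain factors such as CRX, on either strand. The Opn1sw window is chr6:29380514-29380763 on the minus strand, the Opn1mw window chrX:74127216-74127465 and the Arr3 window chrX:100605247-100605496, both on the plus strand.
Opn1sw: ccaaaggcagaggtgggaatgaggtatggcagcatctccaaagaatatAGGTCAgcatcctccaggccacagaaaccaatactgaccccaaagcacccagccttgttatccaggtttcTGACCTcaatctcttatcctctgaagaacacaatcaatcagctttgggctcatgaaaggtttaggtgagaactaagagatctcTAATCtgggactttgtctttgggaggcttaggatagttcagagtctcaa
Opn1mw: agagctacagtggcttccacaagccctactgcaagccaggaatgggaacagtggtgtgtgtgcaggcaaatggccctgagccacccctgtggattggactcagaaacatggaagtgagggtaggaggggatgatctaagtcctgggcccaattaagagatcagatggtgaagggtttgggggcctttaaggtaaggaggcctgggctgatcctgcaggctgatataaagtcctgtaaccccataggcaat
Arr3: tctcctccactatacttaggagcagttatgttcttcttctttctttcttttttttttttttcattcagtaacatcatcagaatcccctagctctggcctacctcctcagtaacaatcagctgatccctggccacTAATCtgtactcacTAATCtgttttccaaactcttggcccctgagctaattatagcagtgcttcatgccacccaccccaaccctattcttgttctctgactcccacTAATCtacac

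The promoter table held 7 windows for 6 of the genes (Opn1sw, Opn1mw, Arr3, Gnat2, Pde6h and Cnga3). AGGTCA was found in 1 of these windows, that of Opn1sw, where it begins 202 bases upstream and, on the other strand, 132 bases upstream. Among all 32851 windows of this length 14.0% held it. AAGGTCA, the longer site core that estrogen-related receptors prefer and that contains AGGTCA, was in 0 of the 7 windows and in 4.08% of all. TAATC was in the windows of Opn1sw, Arr3 and Gnat2 and in 19.8% of all. Arr3 held 3 matches, which begin 116, 102 and 10 bases upstream. A match of letters is a description of the window and not a measured binding site.

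None of the 13 cone probe sets passed the test between labelled knockout and wildtype. Over the whole array 2.25% of 27022 tested probe sets passed (limma with the scaling set as a block, Benjamini-Hochberg adjusted p at or under 0.05). All 13 members were bright enough to be tested, and the lowest adjusted p among them was 0.111, for Gnb3. At an unadjusted p under 0.05 there were 3 members, the brighter Opn1sw probe set, 1 Arr3 probe set and Gnb3, while 20.4% of all tested probe sets reached it. With no block in limma, 0 of the 13 passed and 0 reached an unadjusted p under 0.05. In that setting 0 of all 27022 probe sets passed, so the count of passing members says nothing particular to the cone genes. In the 500 set alone 3 of 13 passed, those of Opn1sw, Opn1mw and Gnb3, where 13.6% of all probe sets did. Leaving out replicate 3 of either group gave the same count of 3, because it leaves only the 500 set to compare.

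In the fit of both sets together most of the members' differences were small. Where the sets went opposite ways, this common value lay between them. The median log2 difference (labelled knockout minus wildtype) was 0.07 over the 13, against -0.02 over all tested probe sets. The median size of a difference, without its sign, was 0.11 against 0.19, and the median standard error (SE) was 0.093 against 0.16. The probe sets in this comparison were not matched for brightness. The 95% intervals of the 13 ran from -0.39 at the lowest bound, for Opn1mw, to 0.95 at the highest, for Gngt2. A miss of the threshold does not show that the levels were alike. The intervals take 1 common difference for both sets, and some values of the 150 set lay outside them. Gnat2 had -0.24 there against an interval of -0.17 to 0.26, and the brightest Arr3 probe set 0.30 against -0.12 to 0.27. The 150 set values of Opn1mw and the brighter Opn1sw probe set were also outside.

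**Figure D1:**
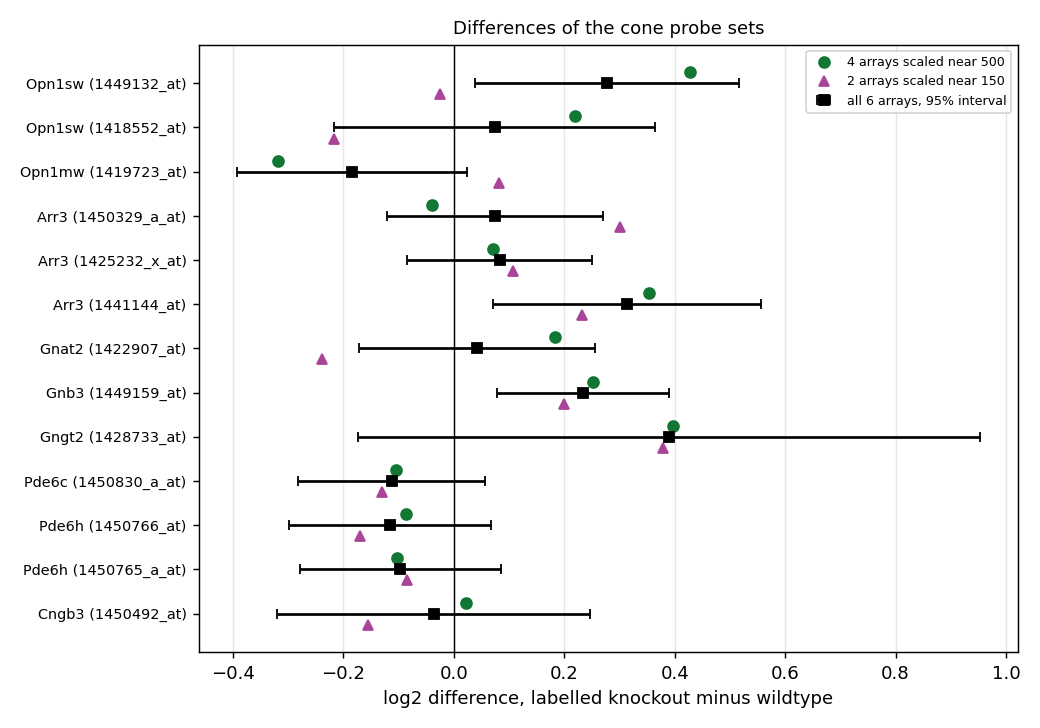
Log2 difference between labelled knockout and wildtype (horizontal axis) for the 13 cone probe sets (vertical axis). Squares with bars are the fit of all 6 arrays with its 95% interval, circles the 500 set and triangles the 150 set; the circle and triangle of Opn1mw lie at -0.32 and 0.08, on opposite sides of 0.

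Of the visual pigments, Opn1sw encodes the short-wavelength opsin. Its brighter probe set read 12289 and 13157 in wildtype against 15762 and 18573 in labelled knockout arrays of the 500 set, and 2988 against 2937 in the 150 set. In the 500 set both labelled knockout arrays were above both wildtype arrays, and in the 150 set the labelled knockout array was slightly lower. The log2 difference was 0.28 ± 0.11 (SE, n = 3 per group, adjusted p = 0.186 in limma), with 0.43 in the 500 set and -0.02 in the 150 set. It was 0.17 without labelled knockout replicate 2 and 0.43 without replicate 3 of either group. A second, dimmer probe set from the same source sequence read 740 and 683 against 771 and 889, and 224 against 193. It had the same order of groups in each set, with a difference of 0.07 ± 0.13 (adjusted p = 0.791).

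Opn1mw encodes the middle-wavelength opsin. It read 5864 and 5806 in wildtype against 4638 and 4722 in labelled knockout arrays of the 500 set, and 597 against 631 in the 150 set. The groups did not overlap in the 500 set, where labelled knockout was lower, and the order was the opposite in the 150 set. The log2 difference was -0.18 ± 0.093 (adjusted p = 0.301 in limma), with -0.32 and 0.08 in the sets. In the fit of the 500 set alone adjusted p was 0.00849 for the brighter Opn1sw probe set and 0.013 for Opn1mw. Over all the alternatives tried these ran from 0.00849 and from 0.013 up to 1.00, the value with no block.

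The balance of the opsins was followed as the log2 ratio of the brighter Opn1sw signal to that of Opn1mw within each array. A change of this ratio shows unequal change and not which gene moved. In the 500 set it stood at 1.07 and 1.18 for wildtype arrays and at 1.76 and 1.98 for labelled knockout arrays, a change of 0.75. In the 150 set it was 2.32 and 2.22, a change of -0.11. Over all arrays the change was 0.46, with an exact permutation p of 0.333 (two-sided, labels exchanged within each set over 12 arrangements, of which the smallest possible p is 0.167). The ratio was higher in both labelled knockout arrays of the 500 set than in its wildtype arrays, and the 150 set holds 1 array of each group.

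**Figure D2:**
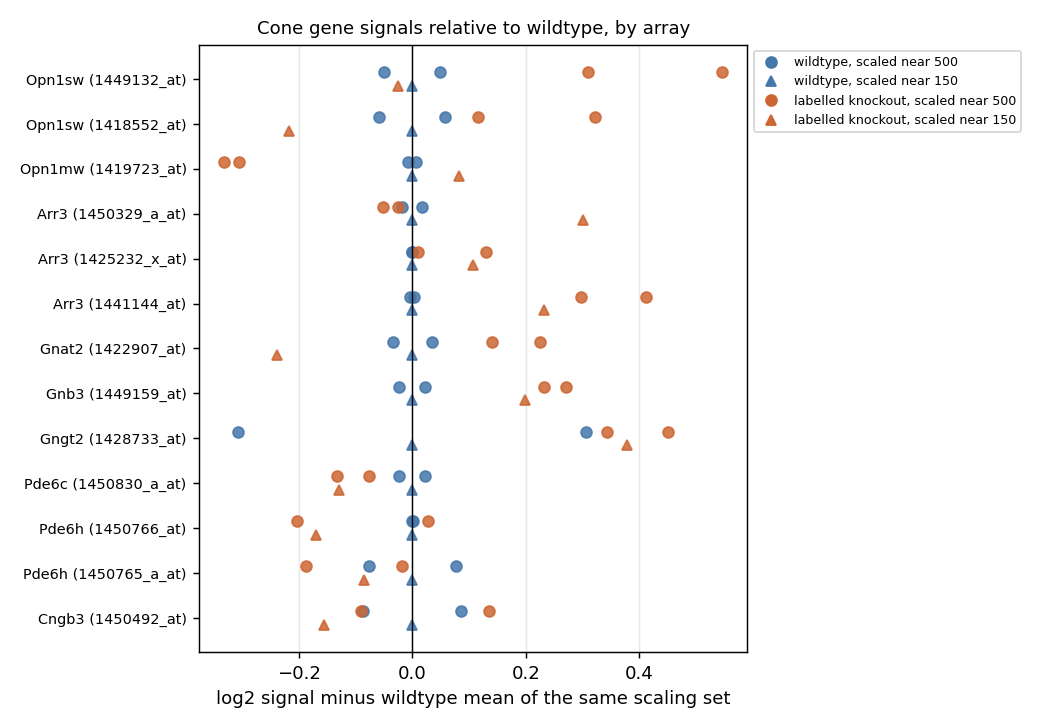
Log2 signal of each array minus the wildtype mean of its own scaling set (horizontal axis) for each cone probe set (vertical axis); circles are the 500 set, triangles the 150 set, blue wildtype and orange labelled knockout. The orange points of Gnb3 lie to the right of the blue ones in both sets, while those of Opn1sw and Opn1mw do so in 1 set only.

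Transducin has 3 subunits, and in cones Gnat2 encodes the α subunit that binds the phosphodiesterase. Gnat2 read 5825 and 6109 in wildtype against 6577 and 6969 in labelled knockout arrays of the 500 set, and 1426 against 1209 in the 150 set. It was higher in both labelled knockout arrays of the 500 set and lower in that of the 150 set. Its log2 difference was 0.04 ± 0.095 (adjusted p = 0.842 in limma), with 0.18 and -0.24 in the sets.

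Gnb3 encodes the β subunit, which ON bipolar cells of the mouse retina also express. It read 4668 and 4525 in wildtype against 5545 and 5397 in labelled knockout arrays of the 500 set, and 1051 against 1206 in the 150 set. Every labelled knockout array was above every wildtype array of its set. The log2 difference was 0.23 ± 0.070 (adjusted p = 0.111 in limma, unadjusted p = 0.0078), with 0.25 and 0.20 in the sets and a 95% interval of 0.08 to 0.39. Over the alternatives that leave out 1 array the difference stayed between 0.22 and 0.25, and over all alternatives adjusted p ran from 0.0377, in the 500 set alone, to 1.00 with no block.

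Markers of ON bipolar cells stood beside Gnb3 as follows. None of 7 measured genes passed in either direction, where 2.75% of all genes did. Their median log2 difference was 0.16, against 0.02 over all genes, and 6 of 7 were above 0. In the 500 set their median was 0.25, but in the 150 set it was -0.11. Their summed signal was 24774 to 26211 in wildtype and 27897 to 29701 in labelled knockout arrays of the 500 set, and 7274 against 6798 in the 150 set. Trpm1, the channel of the ON response, had the largest difference, 0.66 ± 0.15 (adjusted p = 0.0543), and Prkca had the lowest, -0.24 ± 0.078 (adjusted p = 0.136). No marker was at 0, and the share of bipolar cells in the Gnb3 signal was not tested.

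Gngt2 encodes the γ subunit of cone transducin and was the dimmest member. It read 153 and 99.7 in wildtype against 168 and 156 in labelled knockout arrays of the 500 set, and 51.3 against 66.6 in the 150 set. Labelled knockout arrays were higher in both sets, but 2 wildtype arrays read below their array's median signal. The log2 difference of 0.39 ± 0.25 had the widest interval of the members, -0.17 to 0.95 (adjusted p = 0.415 in limma). With 1 array left out it ran from 0.21, without wildtype replicate 2, to 0.56. The other 12 probe sets were above the array median in every array.

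No probe set of the phosphodiesterase genes passed. Pde6c encodes the catalytic subunit of the cone enzyme and read 2790 and 2878 in wildtype against 2586 and 2686 in labelled knockout arrays of the 500 set, and 598 against 547 in the 150 set. Each labelled knockout array was below the wildtype arrays of its set. The log2 difference was -0.11 ± 0.075 (adjusted p = 0.436 in limma), with -0.10 and -0.13 in the sets.

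Pde6h encodes the inhibitory subunit that holds the cone enzyme inactive. Its brighter probe set read 7842 and 7835 in wildtype against 7994 and 6809 in labelled knockout arrays of the 500 set, and 659 against 586 in the 150 set. The groups overlapped in the 500 set. The second probe set read 6612 and 5948 against 6196 and 5508, which also overlap, and 630 against 593. The 2 probe sets had log2 differences of -0.11 ± 0.081 (adjusted p = 0.463) and -0.10 ± 0.081 (adjusted p = 0.541). Without labelled knockout replicate 2 these were -0.056 and -0.047, and without labelled knockout replicate 1 they were -0.19 and -0.14. The second had -0.051 without wildtype replicate 1.

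Cngb3 encodes the modulatory subunit of the cone channel that closes in light. It read 531 and 599 in wildtype against 619 and 530 in labelled knockout arrays of the 500 set, and 202 against 182 in the 150 set. The groups overlapped fully in the 500 set. Its log2 difference was -0.04 ± 0.13 (adjusted p = 0.901 in limma), with a 95% interval of -0.32 to 0.25. The partner subunit Cnga3 was not analysed here.

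Arr3 encodes cone arrestin, and its 3 probe sets differed from each other. The brightest read 4905 and 4790 in wildtype against 4676 and 4762 in labelled knockout arrays of the 500 set, and 777 against 957 in the 150 set. It was slightly lower in labelled knockout in the 500 set (-0.04) and higher in the 150 set (0.30), and its overall difference was 0.07 ± 0.087 (adjusted p = 0.675). The second, whose name marks probes that may bind other transcripts, read 3595 and 3596 against 3621 and 3934, and 795 against 857 (0.08 ± 0.074, adjusted p = 0.571).

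The third Arr3 probe set stood apart from both. It read 412 and 410 in wildtype against 547 and 505 in labelled knockout arrays of the 500 set, and 417 against 490 in the 150 set. All labelled knockout arrays were above the wildtype arrays of their set, and its log2 difference was 0.31 ± 0.11 (adjusted p = 0.151 in limma). Its signal was about as high in the 150 set as in the 500 set. The brightest dropped 5.54-fold and the second 4.46-fold, both by more than the 3.33 ratio of the scales. No direction is given for Arr3 as a gene.

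Groups that do not overlap in the 500 set and lie in the same order in the 150 set were found for 5 of the 13 probe sets, against 33.6% of all tested ones. These were Gnb3, Gngt2, Pde6c and 2 of Arr3. In 6 of 13 the direction differed between the sets, and the share of all tested probe sets that did so was not counted. The difference between the sets was tested as an interaction in limma. None of the 13 passed, where 1.19% of all tested probe sets did, and 4 had an unadjusted p under 0.05, where 15.7% of all did. As the 150 set minus the 500 set, Gnat2 had -0.42 (unadjusted p = 0.00691, adjusted p = 0.143) and Opn1mw 0.40 (adjusted p = 0.154). The brighter Opn1sw probe set had -0.45 (adjusted p = 0.193) and the brightest of Arr3 0.34 (adjusted p = 0.215).

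The cone probe sets also differed in how far their signal dropped between the sets of arrays, in both genotypes. The scales differ by a ratio of 3.33. The brighter Pde6h probe set was 12.2-fold lower in the 150 set, the second 9.90-fold and Opn1mw 8.51-fold. The brighter Opn1sw probe set dropped 4.98-fold and Gnat2 4.84-fold, whereas Cngb3 dropped 2.97-fold, Gngt2 2.42-fold and the third Arr3 probe set 1.03-fold. Beyond the ratio of the scales, 10 of 13 were lower in the 150 set and 3 were higher. Of all tested probe sets 42.2% were lower in this sense, and of the 1497 at least as bright as the median member 81.4% were. The labels do not say what else differed between these sets of arrays.

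**Figure D3:**
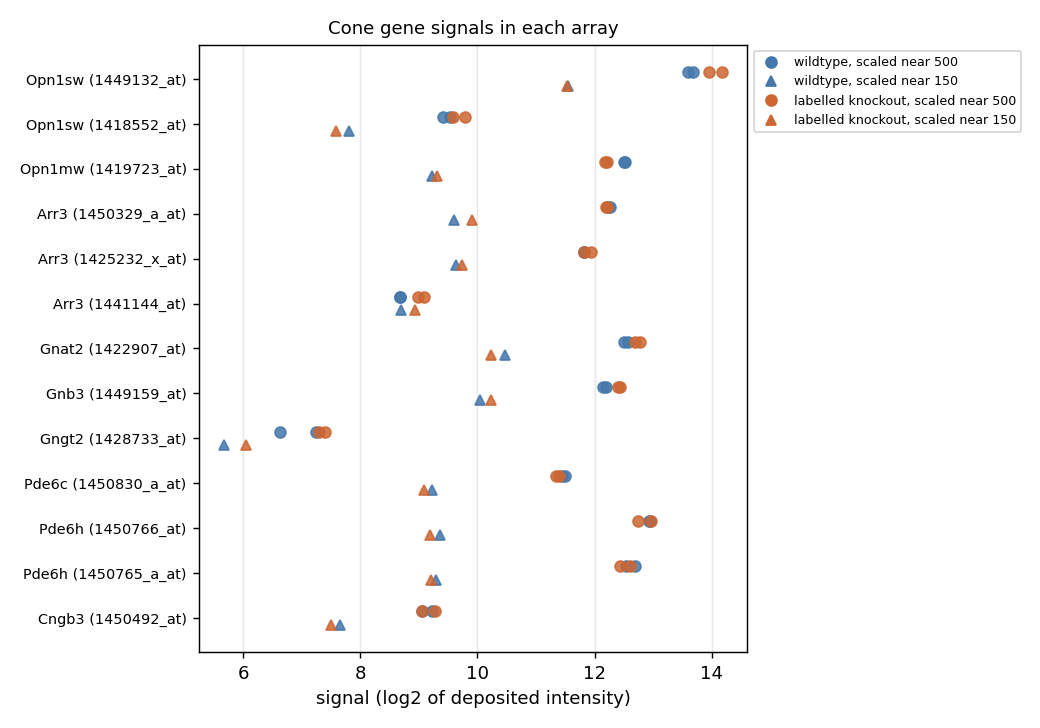
Signal of each cone probe set (vertical axis) in each array as log2 of the deposited intensity (horizontal axis); circles are the 500 set, triangles the 150 set, blue wildtype and orange labelled knockout. The distance between circles and triangles, 12.2-fold for Pde6h and 1.03-fold for the third Arr3 probe set, exceeds the distance between colours in most rows.

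Rods hold a counterpart of most cone genes, and 9 of 10 listed were measured. Of these, 1 passed as higher and none as lower, where 2.75% of 12536 genes passed in either direction, 1.28% as higher. Their median log2 difference was -0.25, with -0.32 in the 500 set and 0.01 in the 150 set, beside medians of 0.07 and -0.02 for the cone probe sets. Cngb1, whose product is the β subunit of the rod channel, was the gene that passed (0.34 ± 0.070, adjusted p = 0.0428), beside -0.04 for its cone counterpart Cngb3. This call was lost under 10 of 15 alternatives, among them no filter (adjusted p = 0.0765), a replicate block (adjusted p = 0.105) and leaving out any 1 of the arrays of the 500 set.

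The other rod genes had values below 0 and did not pass. Rod transducin had -0.25 for Gnat1, -0.34 for Gnb1 and -0.09 for Gngt1, against 0.04 for Gnat2, 0.23 for Gnb3 and 0.39 for Gngt2. Rod phosphodiesterase had -0.43 for Pde6a, -0.01 for Pde6b and -0.36 for the inhibitory subunit Pde6g, against -0.11 for both Pde6c and the brighter Pde6h probe set. Pde6a differed between the sets, with -0.67 in the 500 set and 0.04 in the 150 set (interaction adjusted p = 0.0294 in limma). The rod channel gene Cnga1 had -0.39, and the rod arrestin gene Sag had -0.12 against 0.07 for the brightest of Arr3. Adjusted p in limma ran from 0.0577 for Cnga1 to 0.925 for Pde6b.

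Each cone gene was also set over its rod counterpart within each array, for 8 pairs. The ratio moved towards the cone gene in 6 of 8 pairs in the 500 set and in 3 of 8 in the 150 set. It moved that way in both sets for Gnb3 over Gnb1 (0.57 and 0.56), Gngt2 over Gngt1 (0.57 and 0.29) and Arr3 over Sag (0.15 and 0.30). For Arr3 over Sag the groups overlapped in the 500 set, with -3.39 and -3.28 in wildtype against -3.07 and -3.31 in labelled knockout. That pair used the brightest Arr3 probe set alone, and Gngt2 read below the array median in 2 wildtype arrays. ON bipolar cells also express Gnb3, so its pair does not compare cones with rods alone. The ratio moved towards the rod gene in both sets for Cngb3 over Cngb1 (-0.29 and -0.54) and Pde6c over Pde6b (-0.07 and -0.15). For Gnat2 over Gnat1 it was 0.56 and -0.25, and for Pde6c over Pde6a 0.56 and -0.17. Exact two-sided permutation tests within the sets gave the smallest possible p of 0.167 for 4 of the pairs and 0.333 after adjustment over the 8, so no pair could pass in this design.

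**Figure D4:**
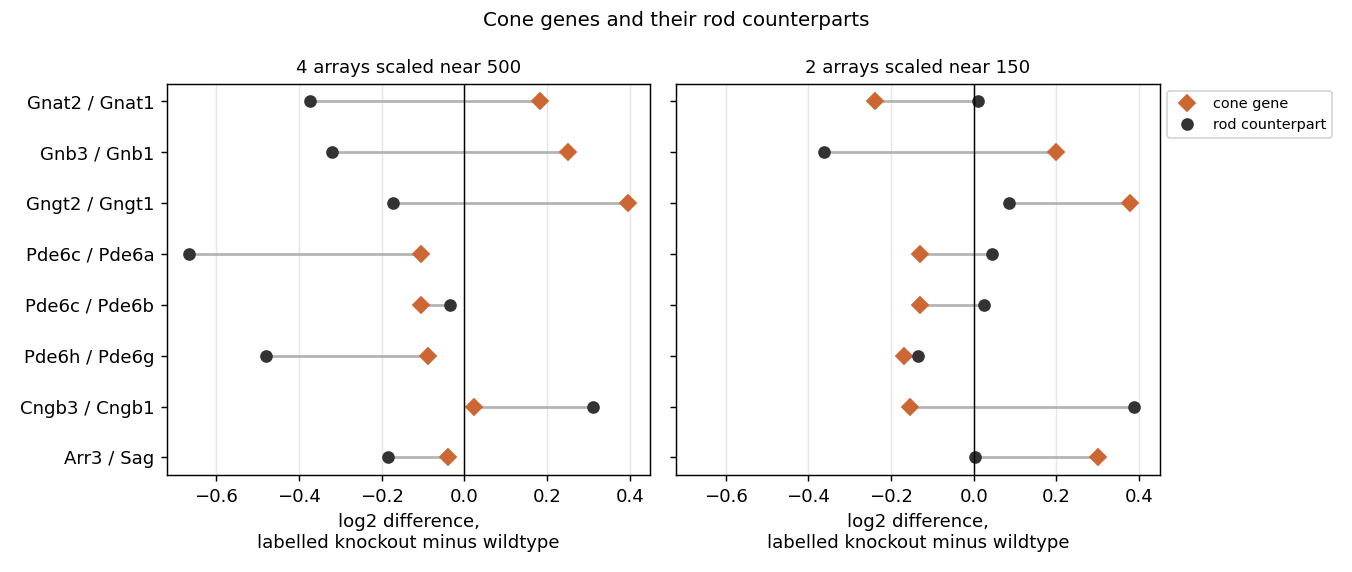
Log2 difference between labelled knockout and wildtype (horizontal axis) for 8 pairs of a cone gene (diamonds) and its rod counterpart (circles), in the 500 set on the left and the 150 set on the right. In the 500 set the diamond lies to the right of the circle in 6 of 8 pairs, and in the 150 set in 3 of 8.

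Cones and rods share several of the genes that end the light response and reset calcium. Of 13 listed 11 were measured, and 3 fell and none rose, where 1.48% of all genes fell. Guca1a, a calcium sensor of photoreceptor guanylate cyclase, read 20704 and 21662 in wildtype against 4820 and 4968 in labelled knockout arrays of the 500 set, and 2810 against 1176 in the 150 set. Every labelled knockout array was far below the wildtype arrays of its set, with a log2 difference of -1.83 ± 0.15 (adjusted p = 0.000449 in limma), and the decrease was larger in the 500 set (-2.11 against -1.26, interaction adjusted p = 0.0111). The related sensor Guca1b fell too, with a log2 difference of -0.68 ± 0.086 (adjusted p = 0.00549).

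Rgs9bp, which anchors the complex that switches transducin off, fell by 0.58 ± 0.11 (adjusted p = 0.0306), with -0.77 and -0.21 in the sets. With no filter (adjusted p = 0.0506), with a replicate block (adjusted p = 0.0775) or without any 1 of the arrays of the 500 set it did not pass, and Guca1b did not pass without wildtype replicate 1 or 2. Among those that did not pass, the highest was Rd3, a regulator of guanylate cyclase (0.28, adjusted p = 0.111). The lowest was Rgs9, the transducin GTPase activator, at -0.77 (adjusted p = 0.232), with -1.42 in the 500 set and 0.54 in the 150 set (interaction adjusted p = 0.0125). The list's median was -0.33, against 0.02 over all genes, with -0.45 in the 500 set and -0.04 in the 150 set.

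Of 12 measured genes for folding and transport of phototransduction proteins, 1 fell and 11 did not pass (median -0.06). Over all genes 1.48% fell. Aipl1, a chaperone of the phosphodiesterase, fell, with a log2 difference of -0.73 ± 0.079 (adjusted p = 0.00225), while the cone enzyme genes Pde6c and Pde6h both had -0.11. The highest and lowest of the others were Pde6d, a carrier of lipid-modified proteins (0.18), and Prph2, a disc rim protein (-0.42, adjusted p = 0.0976 in limma). Prph2 had -0.59 in the 500 set and -0.10 in the 150 set. It read 14114 and 14987 in wildtype arrays of the 500 set but 89.4 in wildtype against 83.5 in labelled knockout in the 150 set.

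The list for cone fate and opsin pattern held 15 transcription factors, of which 13 were measured. Mef2c fell and 12 did not pass, where 1.48% of all genes fell. The list's median was -0.12, with -0.23 in the 500 set and -0.02 in the 150 set. Mef2c, a factor of neurons and muscle and not of cones alone, had -2.78 ± 0.28 (adjusted p = 0.0017 in limma). Its values in the sets were -3.31 and -1.72 (interaction adjusted p = 0.035). Of the rest, Prdm1, which favours photoreceptor over bipolar fate, had 0.58 (adjusted p = 0.0529 in limma). Onecut1, a factor of early cone and horizontal cells, had -1.03 (adjusted p = 0.15), with -0.53 in the 500 set and -2.02 in the 150 set. In the 150 set Onecut1 read 59.4 in wildtype against 14.6 in labelled knockout, and 14.6 is below that array's median of 61.5.

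Thyroid hormone receptor β and the receptors RXRγ and RORβ act on opsin choice in mouse cones, and their genes are named here for that role with their values already seen. Thrb had -0.12 ± 0.19 (adjusted p = 0.758 in limma), with -0.23 in the 500 set and 0.10 in the 150 set. Rxrg had -0.10 ± 0.27 (adjusted p = 0.865), with 0.17 and -0.65 in the sets. In the 150 set Rxrg read 23.4 in wildtype against 15.0 in labelled knockout, below the array medians of 57.3 and 61.5. Rorb had -0.60 ± 0.16 (adjusted p = 0.0894): it read 6586 and 5310 in wildtype against 2964 and 3518 in labelled knockout arrays of the 500 set, and 2438 against 2362 in the 150 set. None of the 3 passed, and in Rorb the groups stood apart in the 500 set and were close in the 150 set.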

How the data were processed

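The authors deposited linear intensities, 1 for each probe set in each array, and GCOS 1.4 and MAS5 are named in the submitters' processing notes with no role or order. Of 45101 probe sets, 64 controls were left out. Arrays carry no read depth, and their number, 3 per group, limits the precision. Values were taken to log2 with no further normalization. The 27022 probe sets with a mean log2 signal at or above the 40th percentile (a geometric mean of 54.5) were tested.

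Groups and replicate numbers came from the sample titles. The main two-sided test used limma 3.58.1 (R 4.3.3), with the scaling set as a block and an intensity trend in the variance prior, Benjamini-Hochberg adjustment over all tested probe sets and a threshold of 0.05. It was tested on simulated data. The scaling set was found from each array's mean after trimming 2% at either end. Intervals use the fit's moderated degrees of freedom. Nothing in the labels says that samples of a group came from different animals. P-values therefore measure the spread between these samples, which may be technical.

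Same-numbered samples deviated together from their group means (r = 0.57 for number 1, 0.67 for number 2 and 0.843 for number 3). Each r is over 0.1, the limit set for pairing. The pairs crossing numbers 1 and 2 gave 0.607 and 0.627, so the pairing seen is that of the scaling set. Within the 500 set the correlation of the pair numbered 1 was 0.0153.

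Members and lists were chosen with earlier results of these data known. Named genes are all members, their rod counterparts, and from each list the genes that passed plus the highest and lowest of the rest. Outside this rule, Esrrb was named as the targeted gene. Thrb, Rxrg and Rorb were named for their role in opsin choice, with their values already seen. A list gene is represented by its brightest kept probe set. Müller glia and rod markers, also listed, had medians of 0.05 (4 measured) and -0.25 (5 measured), with none passing. Probe sets were named through a platform annotation table: 34945 had 1 symbol, 932 several and 9160 none. Promoters are from RefSeq, GRCm38.p6. Alternatives were the block, filter, added value, normalization, variance trend and left-out arrays. Some listed genes are not analysed here.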

Additional observations from a re-analysis of the deposited data

How the results depend on the processing

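The count of 0 of 13 cone probe sets stayed at 0 with no block, with a replicate block (which leaves 2 residual degrees of freedom), with no filter, with a filter at the 60th percentile (12 members tested), with 16 added to every value, with quantile normalization within each set, with arrays centred on their medians and with no variance trend. It was 3 in the 4 arrays scaled near 500 alone, and 0 to 3 when 1 array was left out. Each of the 3 calls came with wildtype replicate 3 or labelled knockout replicate 3 left out, which removes the comparison in the 150 set. The count for the difference between the sets was 0 with no filter, with 16 added and with quantile normalization. Over the whole array 609 probe sets passed in the main fit, 0 with no block, 200 with a replicate block, 405 with no filter, 955 with the 60th percentile filter, 19 with no variance trend and 3687 in the 500 set alone. Signs turned for values near 0 that passed in no setting. In the 500 set alone the brightest Arr3 probe set had -0.039 and Cngb3 0.022. With 1 array left out the dimmer Opn1sw probe set ran from -0.026 to 0.22, the brightest of Arr3 from -0.039 to 0.12, Gnat2 from -0.022 to 0.18 and Cngb3 from -0.12 to 0.022. The other 9 probe sets kept their direction in all alternatives run. With 1 array left out Opn1mw ran from -0.32 to -0.14 and the second of Arr3 from 0.052 to 0.12. The list genes that passed were put through the same alternatives, a choice made after seeing the data. Guca1a, Aipl1 and Mef2c lost their calls with no block and with no variance trend only, and Guca1b, Rgs9bp and Cngb1 lost theirs in 4, 8 and 10 of 15. The cause of these changes was not tested. Gngt2 lies near the array medians, and no background measure was used.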
